A study of Homo sapiens with 16 samples.

Results

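H1 human embryonic stem cells kept for 24 h in E7 medium with 2-deoxyglucose (2DG) were set against H1 cells kept for 24 h in E7 medium with TGFb. E7 is E8, the defined maintenance medium of these cells, with the TGFb left out, so the comparison bears on whether 2DG can stand in for the growth factor that E8 supplies. The 4 libraries were taken by their column names out of 16, and all 17738 genes listed were used, of which 16714 passed a filter on low values and were tested.

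The E7+2DG group had 3 mM 2DG and no TGFb, in 2 libraries. The E7+TGFb group had TGFb at 1.74 ng/mL and no 2DG, in 2 libraries. Levels are also given for E7+TGFb+2DG, which received both at the same doses, and for E7, which received neither, with 2 libraries each. All of these cells were wild type, came from 1 established line grown beforehand in E8 with TGFb, and carried on receiving the insulin, FGF2, transferrin, selenite and ascorbate of the medium. Polyadenylated RNA was sequenced from both ends. It is not given in the sources used here whether a group's libraries came from cultures grown apart. Each p-value rests on the spread between replicate libraries, pooled over all 8 groups of the series, and that spread may be technical. The groups not yet named received Activin A or NODAL, with or without 2DG. Both ligands were given at far higher doses in ng/mL than TGFb. Recovered reads were 16850731 and 14899899 in the E7+2DG libraries and 15415334 and 17325632 in the E7+TGFb libraries.

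The ligands TGFb, Activin A and NODAL are secreted and bind paired receptor kinases, which phosphorylate SMAD2 and SMAD3. These SMADs move to the nucleus with SMAD4, where FOXH1 and other factors bring them to target genes that include NODAL itself and its inhibitors LEFTY1 and LEFTY2. The pathway helps to hold human pluripotent cells undifferentiated, and at higher strength it turns on mesendoderm genes. 2DG is a glucose analog that hexokinase phosphorylates but glycolysis cannot carry further. It also resembles mannose, and it can disturb the glycosylation of proteins in the endoplasmic reticulum (ER). Cells meet ER stress with the unfolded protein response and a wider set of stresses with the transcription factor ATF4, while glucose phosphate and its analogs are read by the MondoA factor, whose best known target is TXNIP.

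The glucose-response gene TXNIP and ATF4 targets such as ASNS and DDIT3 were higher in E7+2DG than in E7+TGFb, and the SMAD2/3 targets LEFTY1, LEFTY2 and NODAL and the mesendoderm gene MIXL1 were lower. Calls were made by limma, fitted to all 16 libraries, at an adjusted p below 0.05, and they took in 1417 genes, 8.48% of those tested. Of these, 797 were higher in E7+2DG (4.77%) and 620 were lower (3.71%), and 275 and 118 of these changed by 1 log2 unit or more. These percentages are the background for every count of list members called below. The core pluripotency genes POU5F1, SOX2 and NANOG were not called. In bulk samples fewer cells of a type and less RNA per cell cannot be told apart, here and in all that follows.

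**Figure D1:**
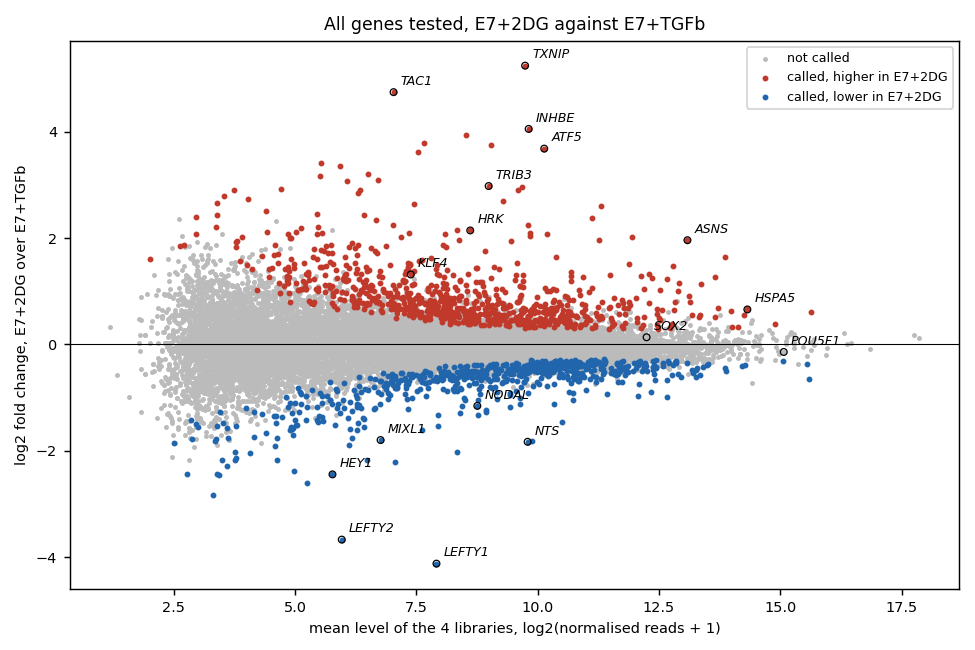
Log2 fold change of E7+2DG over E7+TGFb (vertical axis) against the mean level of the 4 libraries on a log2 scale (horizontal axis), 1 point for each of the 16714 genes tested. Red points are the 797 genes called higher in E7+2DG and blue points the 620 called lower; TXNIP at 5.24 and LEFTY1 at -4.12 lie at the top and near the bottom.

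Since the E7 level cancels, the comparison is also the response to 2DG less the response to TGFb. Against E7, 4913 genes were called for E7+2DG (29.4%), of which 2433 were higher and 2480 lower. Against the same E7 libraries limma called 0 genes for E7+TGFb (0.0%), where 3771 genes had an unadjusted p below 0.05 and 0.106 was the smallest adjusted p. For the same comparison edgeR called 0 and DESeq2 called 295. Both comparisons use the E7 libraries, so their values are given side by side only. The median absolute log2 difference over all genes was 0.231 for E7+2DG against E7+TGFb, 0.36 for E7+2DG against E7 and 0.241 for E7+TGFb against E7.

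The 2 groups outside the comparison were then read for the called genes, a description added after the results were seen. E7+TGFb+2DG lay nearer to E7+2DG than to E7+TGFb in 788 of the 797 genes called higher (98.9%) and in 604 of the 620 called lower (97.4%), against 74.1% of all genes tested. E7 lay nearer to E7+TGFb than to E7+2DG in 738 of the 797 genes called higher (92.6%) and in 588 of the 620 called lower (94.8%), against 66.5% of all genes tested. The called genes were chosen for a gap between E7+2DG and E7+TGFb and most of the others have a smaller one, so these shares are a description.

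The number of called genes rested on few libraries. It was 524 without E7+2DG replicate 1, 235 without E7+2DG replicate 2, 275 without E7+TGFb replicate 1 and 312 without E7+TGFb replicate 2. The spread is pooled over all 8 groups, and the 2 E7+ActivinA replicates differed the most (chi-square per degree of freedom 53.3, against 5.27 in E7+2DG, 1.58 in E7+TGFb and 10.05 in E7). Without the 4 libraries that received Activin A, 3995 genes were called (23.9%), 1924 higher and 2071 lower, and for E7+TGFb against E7 the count was then 4381. Spearman's rank correlation between the log2 fold change and transcript length across genes was 0.0593 for E7+2DG against E7+TGFb, 0.34 for E7+2DG against E7 and 0.457 for E7+TGFb against E7, a description with no p. The part of length in the results was not tested beyond the fit with each library's length trend removed, which called 2717 genes, 1280 higher and 1437 lower. Of the 105 called genes that the naming rule gave, 49 were called with every library left out in turn and under every other setting, and where a named gene lost its call without a library this is said beside it.

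A gene that misses the threshold is not shown to be alike in both groups, so the 95% interval of its log2 fold change was read as well. In 11748 genes (70.3%) the interval lay wholly within 1 log2 unit of 0, and 716 of these were also called. Among the 15297 genes not called, 11032 had such an interval and 4265 did not. The median distance between a fold change and either end of its interval was 0.395.

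TXNIP had the largest log2 fold change of the 1417 called genes, and its paralog ARRDC4 was also higher in E7+2DG. TXNIP is an arrestin-like protein that restrains glucose uptake and binds thioredoxin. Its gene lies on the minus strand of chromosome 1 in GRCh38 (GENCODE 29) at chr1:145992435-145996600. It stood at 1610.2 and 1720.3 normalised reads in E7+2DG, against 44.1 and 42.2 in E7+TGFb (log2 fold change 5.24, SE 0.25, adjusted p = 1.1e-07). The other libraries read 1802 and 1804 in E7+TGFb+2DG and 51.7 and 83.2 in E7. The 4 of these libraries with 2DG were all far above the 4 without it. ARRDC4, which has a like role in glucose uptake, stood at 678 and 704 normalised reads in E7+2DG, against 48.3 and 40.3 in E7+TGFb (log2 fold change 3.94, SE 0.31, adjusted p = 2.4e-05), and at 699 and 746 in E7+TGFb+2DG and 45.0 and 53.8 in E7. Both calls held with each library left out. TXNIP and ARRDC4 were the 2 members called higher among the 7 of the glucose-sensing list, with 0 called lower. The list's median was 0.13, against -0.01 over all genes tested. For the MondoA gene MLXIP and its partner MLX, named after their values were seen, the log2 fold changes were -0.41 (SE 0.17, adjusted p = 0.14) and 0.01 (SE 0.11, adjusted p = 0.98).

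The TXNIP promoter is shown because TXNIP is the textbook gene of the carbohydrate response element, the paired site through which MondoA and MLX act. RefSeq lists 2 windows for TXNIP, and the one that holds the match is shown. The 250 bases before that RefSeq start, on the minus strand of chromosome 1 in GRCh38.p14 at chr1:145996580-145996829, hold 1 match to a pair of CACGNG boxes set 5 bases apart, with N for any base and either strand searched, 88 to 72 bases before the start; the match is in capitals.
TXNIP: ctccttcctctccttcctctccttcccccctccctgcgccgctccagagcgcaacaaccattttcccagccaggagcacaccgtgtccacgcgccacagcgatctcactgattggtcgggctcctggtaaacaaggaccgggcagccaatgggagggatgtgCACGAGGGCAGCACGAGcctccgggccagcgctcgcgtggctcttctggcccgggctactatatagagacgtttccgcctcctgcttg
That motif was found in 0.0456% of 35116 windows of this length, and in TXNIP and GFPT1 among the 87 named genes that had a window. A match to letters is a description and does not show a bound factor.

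The ATF4 amino acid response list had the highest median of the 39 lists. Of its 26 tested members, 24 were called higher in E7+2DG and 0 lower by limma, edgeR and DESeq2 alike, with a median log2 fold change of 2.00, against -0.01 over all genes. In all 26 members both E7+2DG libraries lay above both E7+TGFb libraries, which held for 30.9% of all genes tested. The 2 members not called, named after their values were seen, were ATF4 itself, at 0.37 (SE 0.12, adjusted p = 0.074), and the glutamine transporter gene SLC38A2, at 0.30 (SE 0.13, adjusted p = 0.17). ATF4 is controlled mainly at translation, as background. Members called higher numbered 23 without E7+2DG replicate 1, 20 without E7+2DG replicate 2, 19 without E7+TGFb replicate 1, 21 without E7+TGFb replicate 2 and 26 without the 4 Activin A libraries.

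ASNS, asparagine synthetase and a classical target of this response, stood at 13346 and 14330.4 normalised reads in E7+2DG, against 3474 and 3642 in E7+TGFb (log2 fold change 1.96, SE 0.21, adjusted p = 0.00020). TRIB3, a pseudokinase that feeds back on ATF4, stood at 778 and 1024 normalised reads in E7+2DG, against 119.6 and 106 in E7+TGFb (log2 fold change 2.98, SE 0.34, adjusted p = 0.00029). Neither gene overlapped between the groups, and the gap was many times the difference between replicates. DDIT3, the stress transcription factor CHOP, stood at 321 and 428 normalised reads in E7+2DG, against 20.99 and 31.9 in E7+TGFb (log2 fold change 3.79, SE 0.43, adjusted p = 0.00026). ATF5, a related stress factor, stood at 1881 and 2289 normalised reads in E7+2DG, against 164 and 158 in E7+TGFb (log2 fold change 3.68, SE 0.33, adjusted p = 6.6e-05). DDIT4, a brake on the growth kinase complex mTORC1, stood at 934 and 1020.0 normalised reads in E7+2DG, against 71.4 and 71.2 in E7+TGFb (log2 fold change 3.76, SE 0.37, adjusted p = 0.00012). In all 5 of these genes E7+TGFb+2DG was on the side of E7+2DG, with 14166 and 15167 for ASNS, and E7 on the side of E7+TGFb, with 4088 and 4284 for ASNS.

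The ASNS promoter is shown because its C/EBP-ATF response element is the textbook ATF4 site. RefSeq lists 2 windows for ASNS, and the one that holds the match is shown. The 250 bases before that start, on the minus strand of chromosome 7 in GRCh38.p14 at chr7:97872409-97872658, hold 1 match to TGATGNAA on either strand, 68 to 61 bases before the start, given in capitals.
ASNS: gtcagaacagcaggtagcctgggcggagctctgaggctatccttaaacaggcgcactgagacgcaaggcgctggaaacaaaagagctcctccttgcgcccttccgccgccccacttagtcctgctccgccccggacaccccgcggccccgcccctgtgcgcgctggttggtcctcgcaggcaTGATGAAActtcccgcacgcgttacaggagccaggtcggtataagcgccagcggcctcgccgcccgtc
It was found in 3.14% of the windows of this length, and in ASNS, HERPUD1 and HRK among the named genes.

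Other members of the ATF4 list were called higher as well. SLC7A11, the cystine transporter subunit, stood at 4907 and 3829 normalised reads in E7+2DG, against 695 and 723 in E7+TGFb (log2 fold change 2.61, SE 0.38, adjusted p = 0.0016). SLC1A4, a neutral amino acid transporter, stood at 308 and 369.7 normalised reads in E7+2DG, against 28.3 and 25.3 in E7+TGFb (log2 fold change 3.61, SE 0.37, adjusted p = 0.00018). SESN2, a leucine sensor that restrains mTORC1, stood at 1383 and 1555 normalised reads in E7+2DG, against 331 and 381 in E7+TGFb (log2 fold change 2.04, SE 0.26, adjusted p = 0.00086). These genes kept their calls with each library left out.

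Cytosolic aminoacyl-tRNA synthetases, which charge tRNAs with amino acids, were called higher in 9 of 20 and lower in 2, with a median of 0.24. The tryptophan enzyme gene WARS led with 5380.1 and 5837 normalised reads in E7+2DG, against 1986 and 1955 in E7+TGFb (log2 fold change 1.51, SE 0.19, adjusted p = 0.00081), followed by the serine enzyme gene SARS at 1.32 (SE 0.17, adjusted p = 0.00092), the glycine enzyme gene GARS at 1.15 (SE 0.16, adjusted p = 0.0014) and the cysteine enzyme gene CARS at 1.05 (SE 0.17, adjusted p = 0.0025). The 2 called lower, named after their values were seen, were the phenylalanine enzyme subunit gene FARSB at -0.40 (SE 0.10, adjusted p = 0.028) and the arginine enzyme gene RARS at -0.33 (SE 0.09, adjusted p = 0.038). Members called higher numbered 6 without E7+2DG replicate 1, 4 without E7+2DG replicate 2, 5 without E7+TGFb replicate 1, 5 without E7+TGFb replicate 2 and 12 without the 4 Activin A libraries, and those called lower numbered 0 without E7+2DG replicate 1, 0 without E7+2DG replicate 2, 0 without E7+TGFb replicate 1, 0 without E7+TGFb replicate 2 and 3 without the 4 Activin A libraries.

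**Figure D2:**
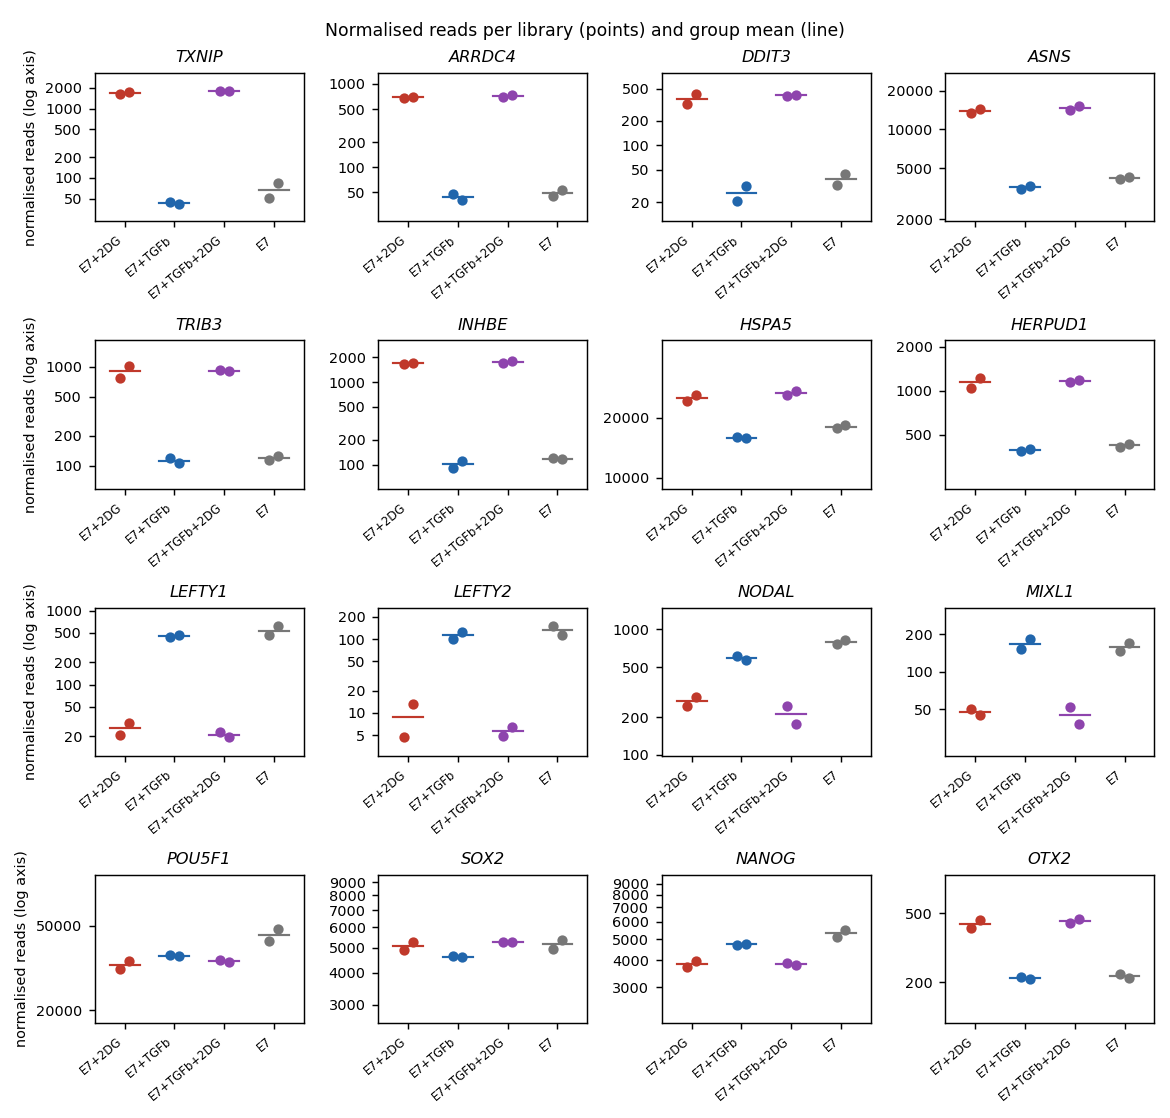
Normalised reads on a log axis for 16 genes in each library (points) with the group mean (line), in E7+2DG, E7+TGFb, E7+TGFb+2DG and E7 from left to right. TXNIP, ARRDC4, DDIT3, ASNS, TRIB3 and INHBE are high with 2DG, LEFTY1, LEFTY2, NODAL and MIXL1 are low with it, and POU5F1 spans 31406 to 48152 over the 8 libraries.

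The ER unfolded protein response list was called higher in E7+2DG in 12 of 24 members and lower in 0, with a median of 0.49. Of all genes tested 4.77% were called higher. In 22 of the 24 both E7+2DG libraries lay above both E7+TGFb libraries, which held for 30.9% of all genes tested. HSPA5, the ER chaperone BiP, stood at 24248 and 25888 normalised reads in E7+2DG, against 15899 and 15862 in E7+TGFb (log2 fold change 0.66, SE 0.09, adjusted p = 0.0014), and at 26046 and 27085 in E7+TGFb+2DG and 17642 and 18451 in E7. HERPUD1, an ER-stress membrane protein of the degradation machinery, stood at 1049 and 1226 normalised reads in E7+2DG, against 385 and 396 in E7+TGFb (log2 fold change 1.54, SE 0.18, adjusted p = 0.00031). Both genes were well separated between the groups, but HSPA5 by a smaller factor. SYVN1, the ubiquitin ligase of ER-associated degradation, had a fold change of 0.81 (SE 0.11, adjusted p = 0.0014), EDEM1, which sends misfolded glycoproteins to that pathway, 0.79 (SE 0.20, adjusted p = 0.025), and the transcription factor XBP1 0.73 (SE 0.12, adjusted p = 0.0031). EDEM1 lost its call without any 1 of the 4 libraries compared (adjusted p 0.11 to 0.16). XBP1 lost its call without E7+2DG replicate 2 (adjusted p = 0.056). Members called higher numbered 7 without E7+2DG replicate 1, 3 without E7+2DG replicate 2, 5 without E7+TGFb replicate 1, 5 without E7+TGFb replicate 2 and 20 without the 4 Activin A libraries.

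The HSPA5 promoter is shown because HSPA5 is the textbook gene of the ER stress response element. The 250 bases before its RefSeq start, on the minus strand of chromosome 9 in GRCh38.p14 at chr9:125241344-125241593, hold 1 match to CCAAT followed by 9 bases of any kind and CCACG, on either strand, 66 to 48 bases before the start, given in capitals.
HSPA5: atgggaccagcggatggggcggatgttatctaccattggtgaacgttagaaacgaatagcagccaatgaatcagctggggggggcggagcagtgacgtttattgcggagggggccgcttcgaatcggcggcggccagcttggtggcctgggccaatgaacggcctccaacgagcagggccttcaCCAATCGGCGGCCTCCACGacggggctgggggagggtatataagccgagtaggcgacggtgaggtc
It was found in 0.074% of the windows of this length, and in HSPA5 and XBP1 among the named genes.

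The hexosamine and N-glycosylation list, which holds the enzymes that make and attach the sugar trees of ER proteins, had 2 of 20 members called higher and 1 lower. These were 15% of the list, beside 8.48% of all genes tested, and its median was 0.15. GFPT1, the entry enzyme of the hexosamine pathway, stood at 3993 and 3921 normalised reads in E7+2DG, against 2122 and 2190.4 in E7+TGFb (log2 fold change 0.88, SE 0.19, adjusted p = 0.012). STT3A, a catalytic subunit of the oligosaccharyltransferase, had a fold change of 0.42 (SE 0.09, adjusted p = 0.012), and UAP1, which makes the sugar donor UDP-GlcNAc, -0.37 (SE 0.11, adjusted p = 0.043). GFPT1 and STT3A lost their calls without any 1 of the 4 libraries compared (adjusted p 0.057 to 0.11). UAP1 lost its call without any 1 library outside the 4 that received Activin A (adjusted p up to 0.24). UAP1 was also not called with the replicate block. Without the 4 Activin A libraries 9 members were called higher and 2 lower, beside 11.5% and 12.4% of all genes tested. In 13 members both E7+2DG libraries lay above both E7+TGFb libraries and in 3 below, beside 30.9% and 31.7% of all genes tested.

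Targets of NRF2, the factor of the oxidative stress response, were called higher in 7 of 12 and lower in 0, with a median of 0.79. SLC7A11, given above, is also on this list. HMOX1, haem oxygenase 1, stood at 345 and 515 normalised reads in E7+2DG, against 119 and 116 in E7+TGFb (log2 fold change 1.84, SE 0.31, adjusted p = 0.0032). GCLM, a subunit of the enzyme that starts glutathione synthesis, had a fold change of 0.93 (SE 0.19, adjusted p = 0.0095), and the ferritin chain gene FTH1 0.87 (SE 0.18, adjusted p = 0.011). HMOX1 lost its call without E7+2DG replicate 2 (adjusted p = 0.062). GCLM lost its call without E7+2DG replicate 1, E7+2DG replicate 2 or E7+TGFb replicate 1 (adjusted p = 0.064, 0.081 and 0.10). FTH1 lost its call without E7+2DG replicate 2, E7+TGFb replicate 1 or E7+TGFb replicate 2 (adjusted p = 0.13, 0.059 and 0.11). Members called higher numbered 4 without E7+2DG replicate 1, 1 without E7+2DG replicate 2, 2 without E7+TGFb replicate 1, 4 without E7+TGFb replicate 2 and 7 without the 4 Activin A libraries.

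VEGFA, the vascular growth factor, stood at 2005 and 2009 normalised reads in E7+2DG, against 605 and 672 in E7+TGFb (log2 fold change 1.65, SE 0.25, adjusted p = 0.0017). It was the 1 member called among 12 of the hypoxia list, whose median was -0.03. HRK, a BH3-only promoter of cell death, stood at 618 and 652 normalised reads in E7+2DG, against 127 and 161 in E7+TGFb (log2 fold change 2.14, SE 0.23, adjusted p = 0.00020). Both E7+2DG libraries lay above both E7+TGFb libraries for HRK, which held for 30.9% of all genes tested. The median of the 17 apoptosis genes was -0.03. The p53 target list had 1 of 15 called higher, SESN2, and 1 lower, the sestrin gene SESN1, at -0.54 (SE 0.13, adjusted p = 0.023). SESN1 lost its call without any 1 of the 4 libraries compared (adjusted p 0.11 to 0.16).

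LEFTY1, LEFTY2, NODAL and SMAD7 were among the 7 of 20 SMAD2/3 targets and feedback genes called lower in E7+2DG. LEFTY1, a secreted inhibitor of NODAL, stood at 20.9 and 30.4 normalised reads in E7+2DG, against 446 and 463 in E7+TGFb (log2 fold change -4.12, SE 0.26, adjusted p = 3.1e-06), and LEFTY2, its neighbour and paralog, at 4.74 and 13.05 normalised reads in E7+2DG, against 102 and 126 in E7+TGFb (log2 fold change -3.67, SE 0.35, adjusted p = 0.00012). LEFTY1 lies on the minus strand of chromosome 1 in GRCh38 (GENCODE 29) at chr1:225886282-225911382, and LEFTY2 on that strand at chr1:225936598-225941489. The paralogs are nearly identical, so how reads common to both were assigned bears on each value. NODAL, the ligand gene, stood at 244 and 291 normalised reads in E7+2DG, against 616 and 573 in E7+TGFb (log2 fold change -1.15, SE 0.18, adjusted p = 0.0023). SMAD7, the inhibitory SMAD, stood at 586 and 684 normalised reads in E7+2DG, against 1008 and 1062 in E7+TGFb (log2 fold change -0.71, SE 0.11, adjusted p = 0.0021). In each of these 4 genes both E7+2DG libraries lay below both E7+TGFb libraries, as in 31.7% of all genes tested. No overlap was a condition for the largest changes, LEFTY1 and LEFTY2 among them. Each of the 4 calls held with every library left out. The LEFTY2 fold change moved to -3.02 without E7+2DG replicate 1 and to -4.31 without E7+2DG replicate 2.

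The list of 20 SMAD2/3 targets and feedback genes had 7 called lower and 2 higher, with a median of -0.17. The 2 called higher, named after their values were seen, were the SMAD corepressor gene TGIF1 at 0.40 (SE 0.11, adjusted p = 0.036) and FOXH1, the DNA-binding partner of SMAD2, at 0.63 (SE 0.14, adjusted p = 0.017). Members called lower numbered 5 without E7+2DG replicate 1, 6 without E7+2DG replicate 2, 6 without E7+TGFb replicate 1, 5 without E7+TGFb replicate 2 and 8 without the 4 Activin A libraries. Members called higher numbered 1 without E7+2DG replicate 1, 0 without E7+2DG replicate 2, 0 without E7+TGFb replicate 1, 0 without E7+TGFb replicate 2 and 4 without the 4 Activin A libraries. SKIL, a transcriptional brake on the pathway, had a fold change of 0.10 (SE 0.12, adjusted p = 0.65) with a 95% interval of -0.15 to 0.35, and was not called.

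Read against E7, the LEFTY1 difference was -4.35 for E7+2DG (adjusted p = 1.5e-06) and -0.23 for E7+TGFb (adjusted p = 0.62). For LEFTY2 it was -3.86 for E7+2DG (adjusted p = 6.1e-05) and -0.20 for E7+TGFb (adjusted p = 0.76). For NODAL it was -1.57 for E7+2DG (adjusted p = 0.00023) and -0.42 for E7+TGFb (adjusted p = 0.20), and for SMAD7 -0.71 for E7+2DG (adjusted p = 0.00082) and -0.0026 for E7+TGFb (adjusted p = 0.99). None of these genes was called for E7+TGFb against E7. E7+TGFb+2DG had 22.5 and 19.6 normalised reads of LEFTY1 and 246 and 177 of NODAL, close to E7+2DG. In the groups with the other ligands and no 2DG, LEFTY1 stood at 4829 and 2993 in E7+ActivinA and 1749 and 1691 in E7+NODAL, above 463 and 613 in E7. Activin A and NODAL were given at far higher doses in ng/mL than TGFb. Ligand and dose therefore cannot be told apart in these values.

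Among 18 ligands, receptors and transducers of the pathway, 1 was called higher and 1 lower, with a median of -0.004. INHBE, the inhibin beta E subunit and also on the ATF4 list, stood at 1672 and 1720.3 normalised reads in E7+2DG, against 92.3 and 111 in E7+TGFb (log2 fold change 4.05, SE 0.32, adjusted p = 2.3e-05). TGFB2, a TGFb ligand gene, stood at 39.9 and 34.8 normalised reads in E7+2DG, against 110.2 and 122 in E7+TGFb (log2 fold change -1.61, SE 0.27, adjusted p = 0.0035). Neither gene overlapped between the groups, which was a condition for INHBE as 1 of the largest changes. Of all genes tested, 30.9% lay above in both E7+2DG libraries and 31.7% below. TGFB2 lost its call without E7+2DG replicate 2 (adjusted p = 0.053). The signal transducers, named after their values were seen, were not called by limma: SMAD2 at 0.04 (SE 0.08, adjusted p = 0.79), SMAD3 at -0.48 (SE 0.14, adjusted p = 0.053) and SMAD4 at 0.12 (SE 0.10, adjusted p = 0.50). TGFBR2, the TGFb type II receptor gene, had -0.60 (SE 0.18, adjusted p = 0.058). SMAD3 and TGFBR2 were called lower by DESeq2 (adjusted p = 0.034 and 0.036) and by limma without the 4 Activin A libraries (adjusted p = 0.0010 and 0.00080), which made 3 of the 18 lower in each, but not by edgeR.

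**Figure D3:**
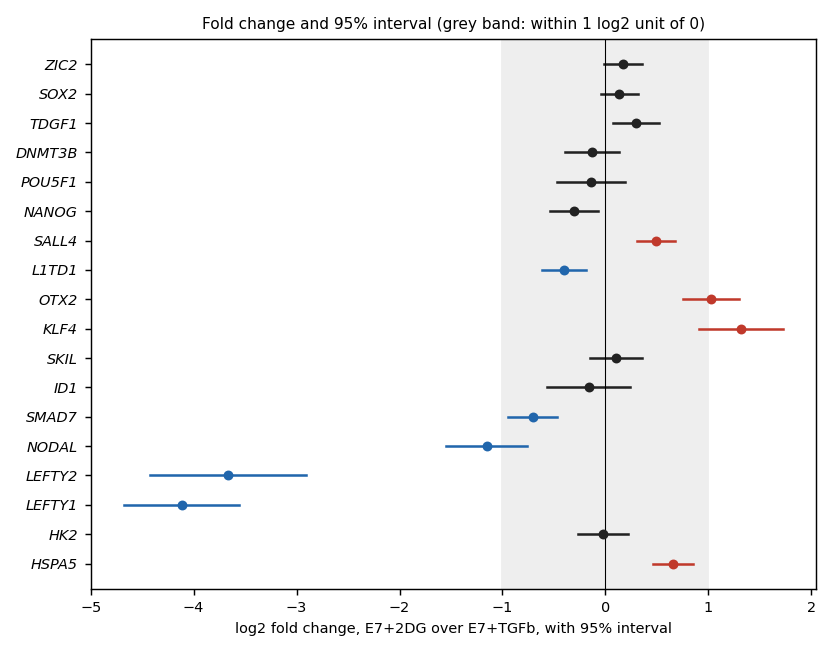
Log2 fold change of E7+2DG over E7+TGFb (points) with its 95% interval (lines) for 18 genes, red where called higher, blue where called lower and black where not called; the grey band marks values within 1 log2 unit of 0. POU5F1, SOX2 and NANOG have intervals inside the band, and those of LEFTY1 and LEFTY2 lie wholly below it.

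Mesendoderm genes were lower in E7+2DG in 5 of 11 tested members and higher in 0, with a median of -0.93. MIXL1, a homeobox gene of the primitive streak, stood at 50.3 and 44.6 normalised reads in E7+2DG, against 153 and 182 in E7+TGFb (log2 fold change -1.80, SE 0.21, adjusted p = 0.00030), and at 51.95 and 38.1 in E7+TGFb+2DG and 147 and 168 in E7. FGF8, a growth factor of the streak, stood at 33.2 and 34.8 normalised reads in E7+2DG, against 106 and 103 in E7+TGFb (log2 fold change -1.59, SE 0.20, adjusted p = 0.00081). Both calls held with every library left out. EOMES, a T-box factor that opens the endoderm programme, was at low levels, with 3.8 and 3.26 normalised reads in E7+2DG, against 14.7 and 14.99 in E7+TGFb (log2 fold change -1.81, SE 0.40, adjusted p = 0.014). WNT3, the ligand that starts the streak, had a fold change of -0.72 (SE 0.14, adjusted p = 0.0078) and FGF4 -0.81 (SE 0.19, adjusted p = 0.017). The brachyury gene, listed as T, stood at 4.74 and 1.09 normalised reads in E7+2DG, against 3.15 and 3.75 in E7+TGFb and was not called (log2 fold change -0.36, SE 0.54, adjusted p = 0.74), with overlapping groups. EOMES and FGF4 lost their calls without any 1 of the 4 libraries compared (adjusted p 0.058 to 0.13). WNT3 lost its call without E7+2DG replicate 1, E7+2DG replicate 2 or E7+TGFb replicate 2 (adjusted p = 0.051, 0.067 and 0.095). The call of EOMES was also lost at a pseudocount of 8 and in edgeR. Members called lower numbered 2 without E7+2DG replicate 1, 2 without E7+2DG replicate 2, 3 without E7+TGFb replicate 1, 2 without E7+TGFb replicate 2 and 7 without the 4 Activin A libraries. The SOX17, GATA6, CER1, MESP1 and EVX1 genes of the list were not analysed here.

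MIXL1 is shown because FOXH1, the partner of SMAD2, acts on this class of gene. The 250 bases before its RefSeq start, on the plus strand of chromosome 1 in GRCh38.p14 at chr1:226223414-226223663, hold 1 match to TGTGGATT on either strand, 249 to 242 bases before the start, given in capitals.
MIXL1: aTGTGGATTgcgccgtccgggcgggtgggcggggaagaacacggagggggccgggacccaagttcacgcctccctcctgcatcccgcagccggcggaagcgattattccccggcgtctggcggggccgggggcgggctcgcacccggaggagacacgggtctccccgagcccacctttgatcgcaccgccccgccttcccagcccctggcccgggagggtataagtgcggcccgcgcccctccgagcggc
It was found in 0.709% of the windows of this length, and in MIXL1 alone among the named genes. The short SMAD motif CAGACA, searched on both strands, was in 13.6% of all windows and in 14 of the 87 named genes with a window, counting every window of a gene, so that a match need not lie in a window printed here.

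Of 8 BMP targets 3 were called, of 13 Notch genes 3 and of 12 WNT genes 2, beside 8.48% of all genes tested. HEY1, a target of both Notch and BMP signalling, stood at 22.8 and 10.9 normalised reads in E7+2DG, against 93.4 and 87.1 in E7+TGFb (log2 fold change -2.44, SE 0.37, adjusted p = 0.0019). SMAD6, an inhibitory SMAD of the BMP branch, had -0.66 (SE 0.19, adjusted p = 0.042) and the helix-loop-helix gene ID4 0.66 (SE 0.16, adjusted p = 0.023), and with HEY1 they were the BMP targets called, while ID1 was not called at -0.16 (SE 0.19, adjusted p = 0.65). The Notch ligand genes JAG1, at 0.63 (SE 0.16, adjusted p = 0.025), and DLL1, at 0.43 (SE 0.10, adjusted p = 0.021), were called higher. LGR5, a WNT target, was low, with 5.69 and 3.26 normalised reads in E7+2DG, against 18.9 and 22.5 in E7+TGFb (log2 fold change -2.02, SE 0.42, adjusted p = 0.011), and it and WNT3 were the WNT genes called, both lower. JAG1 and DLL1 lost their calls without any 1 of the 4 libraries compared (adjusted p 0.054 to 0.19). SMAD6 lost its call without any 1 library outside the 4 that received Activin A (adjusted p up to 0.23). ID4 lost its call without E7+2DG replicate 2, E7+TGFb replicate 1 or E7+TGFb replicate 2 (adjusted p = 0.23, 0.14 and 0.12). LGR5 lost its call without E7+2DG replicate 2, E7+TGFb replicate 1 or E7+TGFb replicate 2 (adjusted p = 0.12, 0.062 and 0.10). SMAD6 was also not called in edgeR. In the groups with Activin A or NODAL and no 2DG, HEY1 and SMAD6 were higher than in E7. HEY1 stood at 1353 and 1153 in E7+ActivinA and 316 and 305 in E7+NODAL, against 125 and 137 in E7. ID4 was higher than in E7 with Activin A but not with NODAL. Ligand and dose cannot be told apart in these values. The HEY1 call held with every library left out.

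Of 16 FGF and ERK response genes 3 were called higher and 3 lower. DUSP6, the phosphatase that dampens ERK, stood at 1831 and 1928 normalised reads in E7+2DG, against 3585 and 3611 in E7+TGFb (log2 fold change -0.94, SE 0.16, adjusted p = 0.0041), and IER3, an immediate early gene, at 511 and 539 normalised reads in E7+2DG, against 1037 and 1085 in E7+TGFb (log2 fold change -1.01, SE 0.16, adjusted p = 0.0022). DUSP5, a nuclear ERK phosphatase, had a fold change of -0.86 (SE 0.16, adjusted p = 0.0051), whereas PHLDA1, a pleckstrin homology protein, had 0.53 (SE 0.11, adjusted p = 0.0093) and the ETS factor gene ETV5 0.49 (SE 0.11, adjusted p = 0.018). The third called higher, named after its values were seen, was DUSP4 at 0.47 (SE 0.12, adjusted p = 0.032). PHLDA1 and ETV5 lost their calls without any 1 of the 4 libraries compared (adjusted p 0.051 to 0.17). DUSP5 lost its call without E7+2DG replicate 1, E7+TGFb replicate 1 or E7+TGFb replicate 2 (adjusted p = 0.051, 0.052 and 0.053). Members called higher numbered 0 without E7+2DG replicate 1, 0 without E7+2DG replicate 2, 0 without E7+TGFb replicate 1, 0 without E7+TGFb replicate 2 and 5 without the 4 Activin A libraries.

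The core pluripotency factors POU5F1, SOX2 and NANOG were not called, and the 95% intervals of all 3 lay within 1 log2 unit of 0. POU5F1 stood at 31406 and 34142 normalised reads in E7+2DG, against 36302 and 35901 in E7+TGFb (log2 fold change -0.14, SE 0.15, adjusted p = 0.64, 95% interval -0.47 to 0.19). SOX2 stood at 4879 and 5281 normalised reads in E7+2DG, against 4659 and 4581 in E7+TGFb (log2 fold change 0.14, SE 0.08, adjusted p = 0.34, 95% interval -0.04 to 0.31). Both E7+2DG libraries were below the E7+TGFb libraries for POU5F1 and above them for SOX2. Of all genes tested, 31.7% lay below in this way and 30.9% above. NANOG stood at 3699.7 and 3954 normalised reads in E7+2DG, against 4701 and 4763 in E7+TGFb (log2 fold change -0.31, SE 0.11, adjusted p = 0.094, 95% interval -0.54 to -0.08), with both E7+2DG libraries below both E7+TGFb libraries. TDGF1, the NODAL coreceptor Cripto, stood at 11697 and 12699 normalised reads in E7+2DG, against 9862 and 9990.0 in E7+TGFb (log2 fold change 0.30, SE 0.10, adjusted p = 0.096). NANOG and TDGF1 became called when the 4 Activin A libraries were left out (adjusted p = 0.0012 and 0.0013) or when either replicate of E7+ActivinA was. Against E7, the NANOG difference was -0.47 for E7+2DG (adjusted p = 0.0062) and -0.16 for E7+TGFb (adjusted p = 0.37), and that of POU5F1 -0.46 for E7+2DG (adjusted p = 0.037) and -0.32 for E7+TGFb (adjusted p = 0.23).

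Of 20 core pluripotency genes, 2 were called higher and 2 lower, the median was 0.01, and the interval of 18 lay within 1 log2 unit of 0. SALL4, a zinc finger factor, had 0.49 (SE 0.09, adjusted p = 0.0041), and the HERV-H transcript gene ESRG 0.56 (SE 0.14, adjusted p = 0.023). L1TD1, an RNA-binding protein of pluripotent cells, had -0.40 (SE 0.10, adjusted p = 0.026), and DPPA2 -0.61 (SE 0.17, adjusted p = 0.046). The methyltransferase gene DNMT3B was not called, at -0.13 (SE 0.12, adjusted p = 0.57). ESRG lost its call without any 1 of the 4 libraries compared (adjusted p 0.11 to 0.16). SALL4 lost its call without E7+2DG replicate 2 or E7+TGFb replicate 2 (adjusted p = 0.061 and 0.053). L1TD1 lost its call without E7+2DG replicate 2, E7+TGFb replicate 1 or E7+TGFb replicate 2 (adjusted p = 0.25, 0.15 and 0.16). DPPA2 lost its call without either replicate of E7+2DG, E7+TGFb, E7, E7+TGFb+2DG or E7+NODAL, or without E7+NODAL+2DG replicate 2 (adjusted p up to 0.27). DPPA2 was also not called with the replicate block. Summed over the 20 genes, normalised reads ran between 204559 and 210899.7 in the E7+2DG libraries and between 199987 and 201668 in the E7+TGFb libraries.

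Markers of naive and primed pluripotency showed no single direction. OTX2, a primed-state homeobox gene, stood at 408 and 459 normalised reads in E7+2DG, against 214 and 209.9 in E7+TGFb (log2 fold change 1.03, SE 0.13, adjusted p = 0.00058), and VIM, the vimentin gene, at 986 and 1096 normalised reads in E7+2DG, against 468 and 426 in E7+TGFb (log2 fold change 1.22, SE 0.18, adjusted p = 0.0016). Of the primed list 4 of 19 were called higher, OTX2, VIM and ETV5 among them, and 1 lower, DUSP6. ZIC2, a zinc finger gene of the primed list, was not called at 0.17 (SE 0.09, adjusted p = 0.24). KLF4, a factor of the naive state, stood at 229 and 246 normalised reads in E7+2DG, against 101 and 89.0 in E7+TGFb (log2 fold change 1.31, SE 0.19, adjusted p = 0.0014), and FGF4, given above, was the 1 lower among 10 naive genes tested. Primed members called higher numbered 3 without E7+2DG replicate 1, 2 without E7+2DG replicate 2, 3 without E7+TGFb replicate 1, 2 without E7+TGFb replicate 2 and 8 without the 4 Activin A libraries. KLF2, KLF17, DPPA5, NR0B1, DNMT3L and ARGFX of the naive list were not analysed here.

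Of 10 neuroectoderm genes tested, 2 were called higher and 0 lower, with a median of -0.01. NEUROG3, a helix-loop-helix factor of neural and endocrine precursors, stood at 201 and 219 normalised reads in E7+2DG, against 88.1 and 97.4 in E7+TGFb (log2 fold change 1.17, SE 0.20, adjusted p = 0.0034), and SOX21 had 0.67 (SE 0.17, adjusted p = 0.028). PAX6, an early neural marker, was low, with 2.85 and 14.1 normalised reads in E7+2DG, against 5.25 and 5.62 in E7+TGFb, and was not called (log2 fold change 0.25, SE 0.58, adjusted p = 0.84), with overlapping groups. Among 5 trophoblast and surface ectoderm genes, GATA2 was the 1 called, lower at -0.61 (SE 0.17, adjusted p = 0.042), and it was not called at a pseudocount of 8, with the replicate block, in edgeR or in DESeq2. NEUROG3 lost its call without E7+2DG replicate 2 (adjusted p = 0.052). SOX21 lost its call without E7+2DG replicate 2, E7+TGFb replicate 1 or E7+TGFb replicate 2 (adjusted p = 0.26, 0.15 and 0.15). GATA2 lost its call without either replicate of E7+2DG, E7+TGFb, E7, E7+TGFb+2DG or E7+NODAL (adjusted p up to 0.27).

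**Figure D4:**
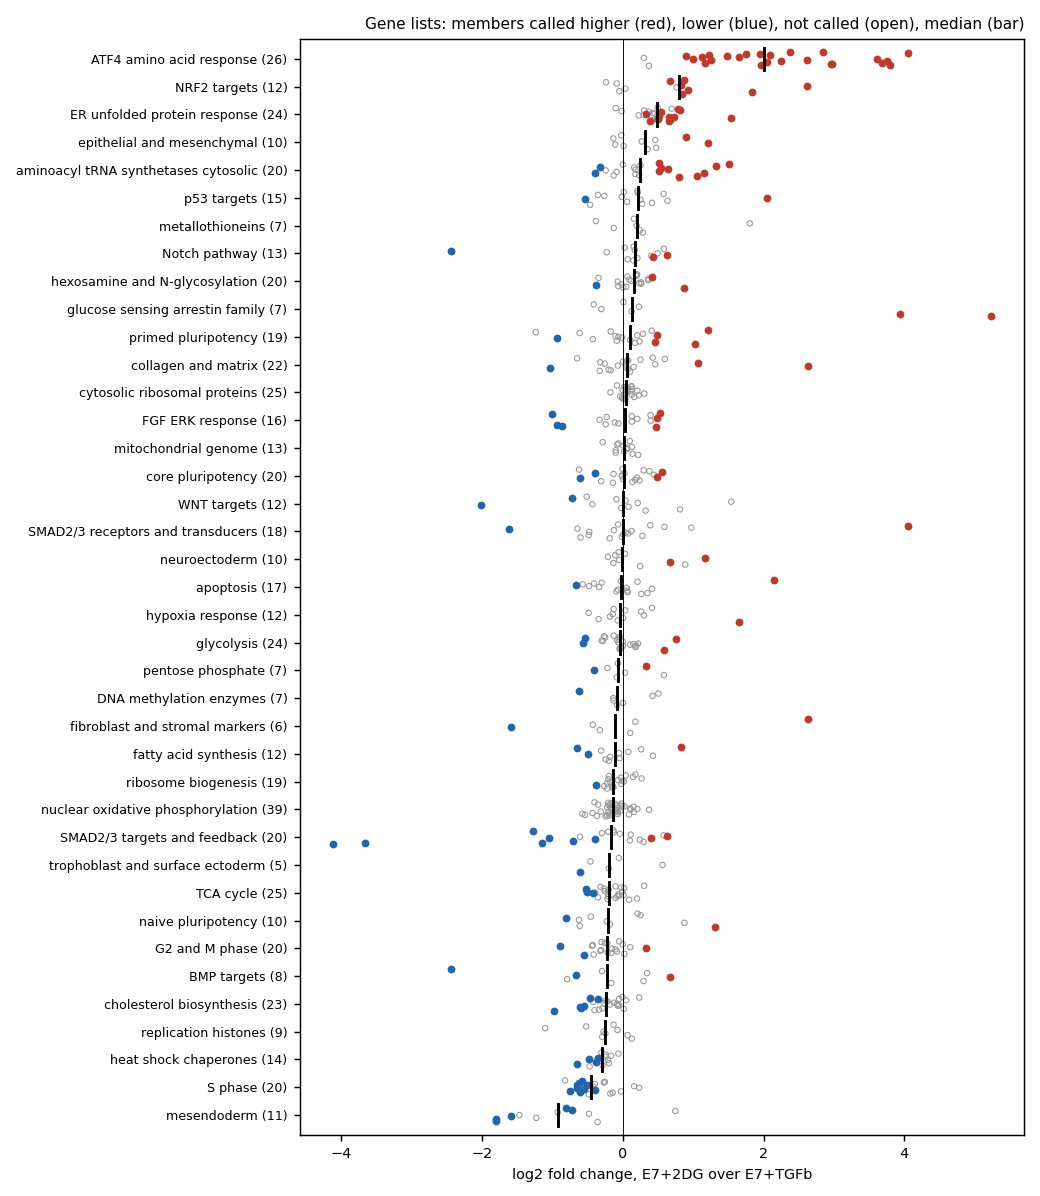
Log2 fold change of E7+2DG over E7+TGFb (horizontal axis) for the tested members of 39 gene lists (rows, number tested in brackets), filled red where called higher, filled blue where called lower and open where not called, with the list median as a bar. The ATF4 list has the highest median, 2.00, and the mesendoderm list the lowest, -0.93.

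Of 20 S phase genes, 9 were called lower in E7+2DG and 0 higher, with 11 not called and a median of -0.45. MCM6, a subunit of the replicative helicase, stood at 3322 and 3226 normalised reads in E7+2DG, against 5502 and 5460.2 in E7+TGFb (log2 fold change -0.74, SE 0.11, adjusted p = 0.0014). RRM1, the large subunit of ribonucleotide reductase, had -0.65 (SE 0.11, adjusted p = 0.0044), GINS2, a subunit of the GINS complex of that helicase, -0.65 (SE 0.16, adjusted p = 0.024) and UHRF1, which carries DNA methylation through replication, -0.62 (SE 0.14, adjusted p = 0.016). PCNA stood at 3345 and 3701 normalised reads in E7+2DG, against 4926 and 4925 in E7+TGFb and was not called (log2 fold change -0.49, SE 0.18, adjusted p = 0.11), but became called without the 4 Activin A libraries (adjusted p = 0.00026) or with either replicate of E7+ActivinA left out. GINS2 and UHRF1 lost their calls without any 1 of the 4 libraries compared (adjusted p 0.065 to 0.16). RRM1 lost its call without E7+2DG replicate 2 or E7+TGFb replicate 2 (adjusted p = 0.062 and 0.053). Members called lower numbered 5 without E7+2DG replicate 1, 2 without E7+2DG replicate 2, 3 without E7+TGFb replicate 1, 2 without E7+TGFb replicate 2 and 15 without the 4 Activin A libraries.

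Of 20 G2 and M phase genes 2 were called lower and 1 higher, 15% beside 8.48% of all genes tested, with a median of -0.22. HMMR, a spindle protein, stood at 1155 and 1098 normalised reads in E7+2DG, against 2070.3 and 2121 in E7+TGFb (log2 fold change -0.90, SE 0.12, adjusted p = 0.0010), and CDK1, the mitotic kinase, had -0.56 (SE 0.13, adjusted p = 0.017), while the kinase gene PLK1 had 0.33 (SE 0.10, adjusted p = 0.0497). MKI67, the proliferation marker, stood at 6176 and 4817 normalised reads in E7+2DG, against 6209 and 6454 in E7+TGFb and was not called (log2 fold change -0.21, SE 0.35, adjusted p = 0.76), its libraries differing most within E7+2DG. CDK1 lost its call without any 1 of the 4 libraries compared (adjusted p 0.082 to 0.14). PLK1 lost its call without any 1 library outside the 4 that received Activin A (adjusted p up to 0.34). PLK1 was also not called with no filter, with the replicate block or in edgeR. Without the 4 Activin A libraries 9 members were called lower and 1 higher, beside 12.4% and 11.5% of all genes tested. In 15 members both E7+2DG libraries lay below both E7+TGFb libraries and in 2 above, beside 31.7% and 30.9% of all genes tested.

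Glycolysis genes showed no common direction, with 2 of 24 called higher and 2 lower and a median of -0.04. The called members were 16.7% of the list, beside 8.48% of all genes tested. ENO2, the neuronal enolase, stood at 1256 and 1252 normalised reads in E7+2DG, against 759 and 725 in E7+TGFb (log2 fold change 0.76, SE 0.12, adjusted p = 0.0030). HK2, a hexokinase that phosphorylates both glucose and 2DG, stood at 2077 and 2218 normalised reads in E7+2DG, against 2282 and 2079 in E7+TGFb and was not called (log2 fold change -0.02, SE 0.11, adjusted p = 0.94, 95% interval -0.26 to 0.22), and its groups overlapped. The glucose transporter gene SLC2A1 had 0.58 (SE 0.17, adjusted p = 0.046), LDHA, the lactate dehydrogenase chain, -0.54 (SE 0.14, adjusted p = 0.032) and the aldolase gene ALDOC -0.57 (SE 0.14, adjusted p = 0.029). Of 7 pentose phosphate genes TKT was higher at 0.34 (SE 0.09, adjusted p = 0.040) and RPIA lower at -0.42 (SE 0.12, adjusted p = 0.047). ALDOC lost its call without any 1 of the 4 libraries compared (adjusted p 0.088 to 0.21). SLC2A1, TKT and RPIA lost their calls without any 1 library outside the 4 that received Activin A (adjusted p up to 0.28). LDHA lost its call without either replicate of E7+2DG, E7+TGFb or E7+NODAL+2DG (adjusted p up to 0.17). RPIA was also not called in edgeR or with the replicate block, and SLC2A1 and TKT not with the replicate block.

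Of 25 TCA cycle genes 3 were called lower and 0 higher, 12% beside 8.48% of all genes tested, with a median of -0.20. These were SUCLA2 at -0.42 (SE 0.08, adjusted p = 0.0075), SUCLG2 at -0.50 (SE 0.12, adjusted p = 0.023), both subunits of succinyl-CoA ligases, and FH, fumarase, at -0.53 (SE 0.14, adjusted p = 0.035). Nuclear genes of oxidative phosphorylation were called in 0 of 39 by limma, with a median of -0.15, and the 13 genes of the mitochondrial genome in 0, with a median of 0.02. At an unadjusted p under 0.05 there were 3 and 1 of these genes, edgeR called 0 of either list, and DESeq2 called 1 nuclear gene lower and 0 mitochondrial ones. The 95% interval lay within 1 log2 unit of 0 for 38 of the nuclear genes and all 13 mitochondrial ones. Without the 4 Activin A libraries, 10 TCA cycle, 8 nuclear and 0 mitochondrial genes were called lower, beside 12.4% of all genes tested. Those called higher numbered 0, 0 and 1, beside 11.5%. Both E7+2DG libraries lay below both E7+TGFb libraries in 16 TCA cycle and 25 nuclear genes, beside 31.7% of all genes tested. They lay above in 3 and 5, beside 30.9%. SUCLG2 lost its call without any 1 of the 4 libraries compared (adjusted p 0.060 to 0.20). SUCLA2 lost its call without E7+2DG replicate 2, E7+TGFb replicate 1 or E7+TGFb replicate 2 (adjusted p = 0.092, 0.0503 and 0.099). FH lost its call without either replicate of E7+2DG, E7+TGFb, E7+TGFb+2DG, E7+NODAL or E7+NODAL+2DG (adjusted p up to 0.19).

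Cholesterol synthesis genes were called lower in 6 of 23 and higher in 0, with a median of -0.24. HMGCS1, the synthase that precedes the rate-limiting step, stood at 4397 and 4288 normalised reads in E7+2DG, against 8635 and 8526 in E7+TGFb (log2 fold change -0.98, SE 0.14, adjusted p = 0.0016). FDPS had -0.61 (SE 0.14, adjusted p = 0.018), IDI1 -0.59 (SE 0.14, adjusted p = 0.019) and FDFT1 -0.56 (SE 0.14, adjusted p = 0.026), all enzymes of later steps. Of 12 fatty acid synthesis genes, ACSS2, which makes acetyl-CoA from acetate, was lower at -0.65 (SE 0.15, adjusted p = 0.018), as was the elongase gene ELOVL6 at -0.50 (SE 0.10, adjusted p = 0.0075), and ME1, malic enzyme, was higher at 0.82 (SE 0.23, adjusted p = 0.040). FDPS, IDI1 and FDFT1 lost their calls without any 1 of the 4 libraries compared (adjusted p 0.070 to 0.16). ME1 lost its call without any 1 library outside the 4 that received Activin A (adjusted p up to 0.20). ACSS2 lost its call without E7+2DG replicate 2, E7+TGFb replicate 1 or E7+TGFb replicate 2 (adjusted p = 0.20, 0.082 and 0.16). ELOVL6 lost its call without E7+2DG replicate 2, E7+TGFb replicate 1 or E7+TGFb replicate 2 (adjusted p = 0.10, 0.062 and 0.075). ME1 was also not called with the replicate block. Cholesterol genes called lower numbered 1 without E7+2DG replicate 1, 1 without E7+2DG replicate 2, 1 without E7+TGFb replicate 1, 1 without E7+TGFb replicate 2 and 11 without the 4 Activin A libraries.

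Of 14 cytosolic heat shock chaperones, 4 were called lower in E7+2DG and 0 higher. Both E7+2DG libraries lay below both E7+TGFb libraries in all 14, which held for 31.7% of all genes tested, with a median of -0.30. HSP90AA1, an inducible HSP90, stood at 39012 and 37879 normalised reads in E7+2DG, against 60090.5 and 60234 in E7+TGFb (log2 fold change -0.65, SE 0.10, adjusted p = 0.0025). HSPA4 had -0.48 (SE 0.09, adjusted p = 0.0079), HSPH1 -0.35 (SE 0.08, adjusted p = 0.016) and HSPA8, the constitutive HSP70, -0.38 (SE 0.11, adjusted p = 0.044). HSPA4 and HSPH1 lost their calls without any 1 of the 4 libraries compared (adjusted p 0.051 to 0.12). HSPA8 lost its call without any 1 library outside the 4 that received Activin A (adjusted p up to 0.20). HSPA8 was also not called with no filter or with the replicate block. Those called lower numbered 1 without E7+2DG replicate 1, 1 without E7+2DG replicate 2, 1 without E7+TGFb replicate 1, 1 without E7+TGFb replicate 2 and 9 without the 4 Activin A libraries. Ribosomal protein genes were called in 0 of 25 by limma, edgeR and DESeq2, with 0 at an unadjusted p under 0.05, a median of 0.04 and a range of -0.18 to 0.31. Of 19 ribosome biogenesis genes GNL3, nucleostemin, was the 1 called, lower at -0.39 (SE 0.10, adjusted p = 0.030). GNL3 lost its call without either replicate of E7+2DG, E7+TGFb, E7+TGFb+2DG or E7+NODAL+2DG (adjusted p up to 0.18). HSP90AA1, HSPA8, the ribosomal protein genes and, above, POU5F1, FTH1 and LDHA have near-identical pseudogenes, so reads they hold in common with those copies are of uncertain origin.

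**Figure D5:**
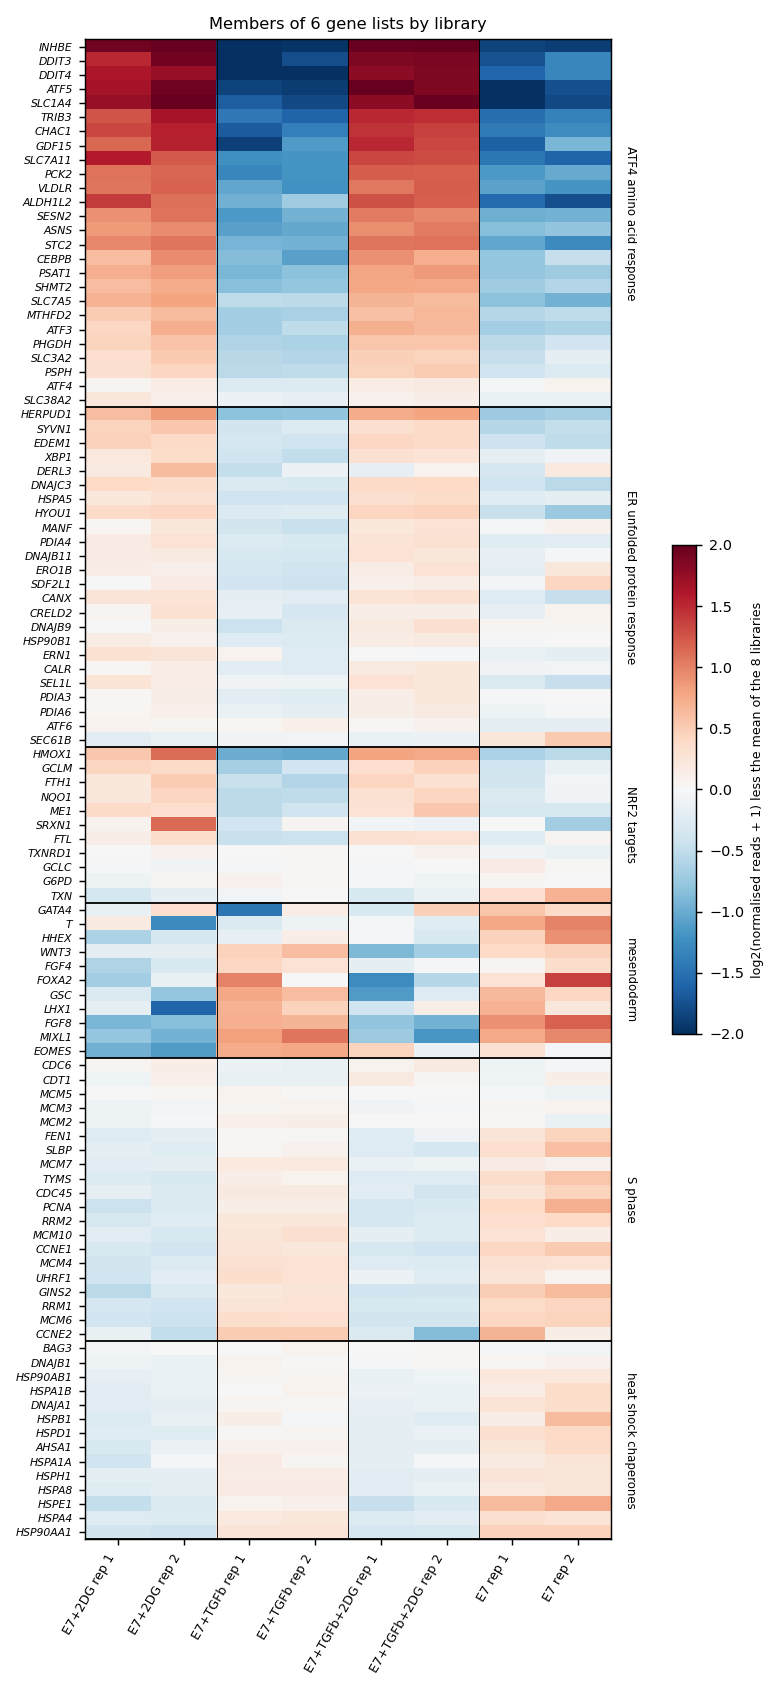
Log2 of normalised reads plus 1 less the mean of the 8 libraries shown, for members of 6 gene lists (rows) in E7+2DG, E7+TGFb, E7+TGFb+2DG and E7 (columns, 2 replicates each); colours are clipped at 2 in either direction. A gene on more than 1 list is drawn once. ATF4 rows, most ER rows and NRF2 rows such as HMOX1 and GCLM are red in the 4 libraries with 2DG, and most S phase and heat shock rows and the mesendoderm rows FGF8 and MIXL1 are blue in them.

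Matrix genes had 2 of 22 called higher and 1 lower, 13.6% beside 8.48% of all genes tested. COL5A2, a fibrillar collagen chain, stood at 1200.3 and 1036 normalised reads in E7+2DG, against 2255 and 2321 in E7+TGFb (log2 fold change -1.04, SE 0.16, adjusted p = 0.0019), while COL6A3, a collagen VI chain, stood at 308 and 290.3 normalised reads in E7+2DG, against 46.2 and 48.7 in E7+TGFb (log2 fold change 2.63, SE 0.48, adjusted p = 0.0056) and the laminin gene LAMA5 had 1.06 (SE 0.20, adjusted p = 0.0064). Among 10 epithelial and mesenchymal genes VIM and the smooth muscle gene TAGLN, at 0.90 (SE 0.25, adjusted p = 0.040), were called higher and 0 lower. TAGLN lost its call without any 1 library outside the 4 that received Activin A (adjusted p up to 0.23). COL6A3 lost its call without E7+2DG replicate 2 or E7+TGFb replicate 1 (adjusted p = 0.058 and 0.055). LAMA5 lost its call without E7+2DG replicate 2, E7+TGFb replicate 1 or E7+TGFb replicate 2 (adjusted p = 0.073, 0.052 and 0.068).

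Markers of fibroblasts and stromal cells, which a stem cell culture could hold, were read beside these. COL3A1, DCN, LUM and POSTN of the 10 markers were not analysed here, COL6A3 was called higher and PDGFRB lower at -1.59 (SE 0.42, adjusted p = 0.033), and the sum over the 6 tested ran between 3546 and 3675 normalised reads in the E7+2DG libraries and between 4338 and 4339 in the E7+TGFb libraries. PDGFRB lost its call without either replicate of E7+2DG, E7+TGFb or E7+NODAL (adjusted p up to 0.21). The part of other cells in these results was not tested. Replication histones, whose transcripts lack poly(A) tails, were called in 0 of 9 and metallothioneins in 0 of 7 by limma, edgeR and DESeq2, with 0 and 1 at an unadjusted p under 0.05. Their medians were -0.25 and 0.20, and members of both families resemble each other closely, so single genes are uncertain.

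Several of the largest changes lay outside the lists. TAC1, the precursor of the tachykinin substance P, stood at 245 and 257 normalised reads in E7+2DG, against 8.39 and 8.43 in E7+TGFb (log2 fold change 4.74, SE 0.50, adjusted p = 0.00020), and at 264 and 288 in E7+TGFb+2DG and 8.62 and 12.2 in E7. PEX5L, a relative of the peroxisomal import receptor, stood at 177 and 148 normalised reads in E7+2DG, against 19.9 and 14.1 in E7+TGFb (log2 fold change 3.20, SE 0.55, adjusted p = 0.0036). VLDLR-AS1, an antisense gene, had 3.35 (SE 0.48, adjusted p = 0.0014), and since the strand setting is not given its reads cannot be told apart from those of VLDLR, which is on the ATF4 list at 2.25. PEX5L lost its call without E7+TGFb replicate 2 (adjusted p = 0.051).

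On the lower side, NTS, the neurotensin precursor, stood at 379.5 and 397 normalised reads in E7+2DG, against 1303 and 1463 in E7+TGFb (log2 fold change -1.83, SE 0.26, adjusted p = 0.0014), and GUCY1B3, a soluble guanylate cyclase subunit, at 127 and 124 normalised reads in E7+2DG, against 492 and 539.6 in E7+TGFb (log2 fold change -2.03, SE 0.31, adjusted p = 0.0018). PLBD1, a phospholipase B domain protein, stood at 399 and 438 normalised reads in E7+2DG, against 1464 and 1469 in E7+TGFb (log2 fold change -1.81, SE 0.20, adjusted p = 0.00022). Each was lower in both E7+2DG libraries than in either E7+TGFb library, which the rule that named these genes required. GDA, guanine deaminase, had -2.21 (SE 0.32, adjusted p = 0.0016), TNMD, tenomodulin, -2.18 (SE 0.30, adjusted p = 0.0013), COL8A1, a short-chain collagen, -1.75 (SE 0.20, adjusted p = 0.00031) and STARD8 -1.89 (SE 0.29, adjusted p = 0.0018). These 7 calls held with every library left out. In the groups with the other ligands and no 2DG, GUCY1B3, PLBD1, NTS, TNMD and STARD8 were higher than in E7. GUCY1B3 stood at 2095 and 2320.1 in E7+ActivinA and 998 and 1102 in E7+NODAL, against 479.7 and 479 in E7. PLBD1 stood at 8656 and 7285 in E7+ActivinA and 3412 and 3482 in E7+NODAL, against 1583 and 1675 in E7. COL8A1 was lower in E7+ActivinA, at 59.1 and 68.7, against 119.7 and 115.7 in E7, and GDA overlapped E7 there. Both were higher than E7 in E7+NODAL. Here too the doses of Activin A and NODAL were far above that of TGFb.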

How the data were processed

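Poly(A) RNA libraries, 2 for each of 8 groups, were read from 1 deposited table of signal, which the authors scaled as counts divided by a size factor. Trimmomatic 0.36, STAR, featureCounts 1.5.3, DESeq2 1.26.0 and hg38 are named in the submitters' processing notes; their roles, the annotation, the strand setting and any filter are not given in the sources used here. Whole reads were recovered for 100.0% of values (tolerance 1e-06), with at least 1 read for every gene in every library, and depths of 14600479 to 17630329 reads. Genes with fewer reads somewhere have no value here.

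Log2(value + 1) of the 16714 genes with at least 10 in at least 2 libraries was fitted with limma 3.58.1 (R 4.3.3; intensity trend, 8 group means, Benjamini-Hochberg, called under 0.05). Fold changes are on this scale, which understates low genes. edgeR 4.0.16 and DESeq2 1.42.0 on recovered reads, other scalings, pseudocounts and filters, a replicate block, removal of a length trend and left-out libraries were alternatives; scripts were tested on simulated data.

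Genes were named by rule: the 10 largest called changes in each direction averaging at least 100 in the higher group without overlap, up to 4 called members of each of 39 lists with the largest changes, and a fixed set. The members and lists were chosen with earlier results of these data known. Promoter windows are those of RefSeq (GRCh38.p14), and gene positions those of GENCODE 29. Same-numbered libraries of E7+2DG and E7+TGFb did not deviate together (r = -0.03), and r was above 0.1 in 3 of 28 group pairs. Samples were not paired in the main fit. These correlations cannot show whether the replicate numbers pair samples, since a small shared deviation can leave r near 0. Results for some genes are not reported here.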

Additional observations from a re-analysis of the deposited data

How the results depend on the processing

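The 1417 genes called for E7+2DG against E7+TGFb became 4342 with only the 4 libraries compared, 3995 without the 4 Activin A libraries and 2717 with the length trend removed, and 235 to 3090 with 1 library left out. They stayed within 1.5 times under TMM factors (1417), equal totals (1428), pseudocounts of 0.5 (1412) and 8 (1428), no filter (1357), a mean of at least 50 (1485), edgeR (1373) and DESeq2 (1635). With the replicate block the count was 1187, although it is not known whether the replicate numbers pair samples. The 4913 genes called for E7+2DG against E7 became 7590 without the 4 Activin A libraries and 1586 to 7003 with 1 library left out. The 0 called for E7+TGFb against E7 became 2435 with only the 4 libraries of that comparison, 4381 without the 4 Activin A libraries, 295 in DESeq2, and 0 to 3350 with 1 library left out. The 11748 genes with an interval within 1 log2 unit of 0 ranged over 10451 to 12151 with 1 library left out. The cause of these shifts was not tested, and none of the 105 called genes named by rule changed direction under any alternative run. Among those not called, HK2, SKIL, T and PAX6 changed sign with 1 compared library left out.

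With 2 libraries a group, each left-out fit assumes that the lone library varies like the other groups, and precision of low genes such as LEFTY2, EOMES, T and PAX6 is limited by counting. Genes at 0 in any library were not analysed here, so a gene silenced wholly in 1 group could not be seen. The separate origin of replicates is not stated, and group and unrecorded handling cannot be told apart.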
